A study of Homo sapiens with 3 samples.

Results

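Subpopulations of MCF10A, an immortalised and non-tumorigenic human mammary epithelial cell line, were compared: the one labelled stem and the one labelled basal. The comparison covers 54 panel genes, those with 10 or more raw counts in the basal library, out of the 105 genes measured beside 5 housekeeping genes. RNA was counted on the NanoString nCounter, which hybridises a colour-coded barcode to each target RNA and counts barcodes singly without amplification. Each subpopulation had 1 library of total RNA from 1 cell line, and a luminal library of the same line is used below as a further level and to sort genes by abundance. The labels give no method of separating the subpopulations and no culture or treatment, and they name an RNA extraction kit for fixed tissue. The study's title places the samples in work on cell states governed by Slug, a transcription factor encoded by SNAI2, which is not among the genes analysed here.

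The mammary epithelium has an outer basal layer, which makes keratins 5, 14 and 17, P-cadherin and contractile proteins, and an inner luminal layer, which makes keratins 8, 18 and 19 and carries the hormone receptors. Cells with stem activity can give rise to both layers, and in the mammary gland this activity has been linked to the basal layer and to Slug. MCF10A cells grow in culture with mixed basal and luminal traits.

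The endogenous counts came to 8891 for basal and 792367 for stem, so the basal counts set the precision of every ratio. Counts were scaled within each library to a housekeeping mean, the geometric mean over SF3A1, RPLP0, PSMC4, MRPL19 and ACTB (118 counts in basal and 12846 in stem), and a normalised count below is the count per 100 of that mean. Ratios are stem over basal, with a 95% interval that is exact, conditional on the sum of the 2 counts and covers counting error only. With 1 library a side there is no replicate spread, no test and no p-value, and nothing below shows that subpopulations, rather than these libraries, differ. A gene was called when its ratio was at least 1.5-fold (0.585 on the log2 scale) and its interval excluded 1. The scale itself has a counting half-width of 0.23 log2, which moves all genes alike. Its 5 genes disagreed, with an SD of 0.60 (n = 5 genes). They ran from -0.84 (-0.90 to -0.78) for the ribosomal protein gene RPLP0 to 0.66 (-0.22 to 1.72) for the splicing factor gene SF3A1, which had 10 basal counts. Scaling by the 6 spiked positive controls instead adds 0.47 to every log2 ratio, but probes E and F had only 4 and 1 basal counts, and probes A to D alone add 0.12. Direct gene to gene ratios within a library are therefore given beside the calls. Negative control probes were listed at 1 in basal and at 1 to 14 counts in stem, and all 54 genes had at least 908 counts in stem.

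The labels could be checked only in part. The basal markers KRT5, KRT14, KRT17 and CDH3 were measured in both libraries, and together they had 1861 counts in basal and 159944 in stem. Of 7 luminal markers, 4 were listed at 1 in basal (KRT19, GATA3, ESR1 and EPCAM), while KRT8 was the most abundant of the 54 genes in each library. KRT19, GATA3 and ESR1 were listed at 1 in luminal as well. At the stem level they would have given 0.29, 0.36 and 0.22 counts in basal, too few to be seen. The basal markers were also abundant in luminal, from 49 counts of CDH3 to 972 of KRT5. The presence of most of these markers therefore does not tell the basal from the luminal label, but some levels differed. CD24 had 4 counts in basal and 21 in luminal, or 3.38 (0.92 to 8.65) and 15.2 (9.42 to 23.3) normalised. EPCAM had 1 and 6 counts, with overlapping intervals. Of the basal markers, KRT14 was higher in basal (477 against 343 normalised), and KRT17 was higher in luminal (387 against 289). MYC was the only gene of the stem or progenitor marker list on the panel, so the stem label could not be checked. No marker of fibroblasts, endothelium or leukocytes was on the panel. In bulk RNA, fewer cells of a type and less RNA per cell cannot be told apart.

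Between the libraries, 11 of the 54 genes were called, which is 20.4% of those compared. Higher in stem were 6 genes (11.1%), and lower were 5 (9.26%). Without the limit on size, 21 had an interval that excluded 1 (38.9%), 10 higher and 11 lower, and 33 had an interval that included it. Over all 105 genes the rule called 13 (12.4%), of which 8 were higher (7.62%) and 5 lower (4.76%). Log2 ratios of the 54 genes ran from -0.86 to 1.06 with a median of 0.08, and the middle of the distribution, from the lower to the upper quartile, spanned -0.25 to 0.36. Only FABP5 reached 2-fold with an interval excluding 1 (1.85%). A change of scale adds the same amount to every log2 ratio, from -0.21 to 0.47 for the scales tried, so it changes which genes are called but not their order.

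**Figure D1:**
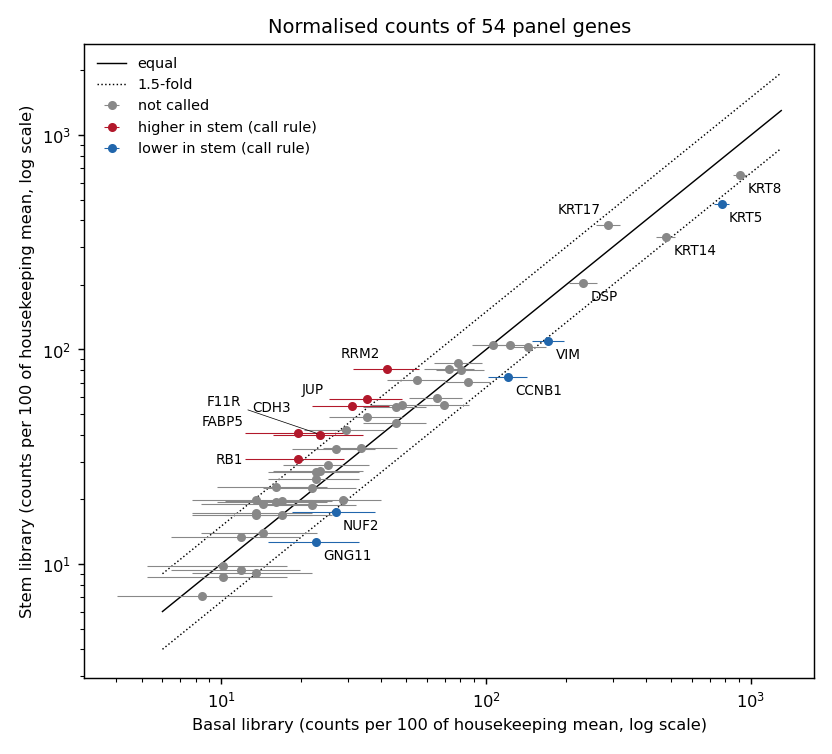
Normalised counts (count per 100 of the housekeeping geometric mean, log axes) of the 54 genes, 1 library for basal and 1 for stem. Horizontal bars are 95% Poisson counting intervals of the basal value, the solid line marks equal levels and the dotted lines 1.5-fold. The 6 genes called higher lie above the upper dotted line between 19.4 and 42.2 in basal, and the 5 called lower lie below the lower one between 22.8 and 775.

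The 6 genes higher in stem were led by FABP5 (NM_001444.1), which encodes a fatty acid binding protein of epithelial cells. It had 23 counts in basal and 5215 in stem, or 19.4 (12.3 to 29.2) and 40.6 (39.5 to 41.7) normalised. Equal levels would have put 48.1 counts in the basal library, so the ratio was 2.09-fold (1.39 to 3.30), or 1.06 on the log2 scale. The luminal library had 21.7 (14.7 to 31.0), close to basal and below stem.

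RRM2 (NM_001034.1, chr2:10122568-10211010 in GRCh38.p14) encodes the small subunit of ribonucleotide reductase, which makes deoxynucleotides for DNA synthesis. It had 50 counts in basal where equal levels would have given 96.4, and 10462 in stem. Its normalised count was 42.2 (31.3 to 55.7) in basal, 81.4 (79.9 to 83.0) in stem and 44.2 (33.8 to 56.8) in luminal, so that stem stood above both others. The ratio of stem to basal was 1.93-fold (1.46 to 2.60). RB1 (NM_000321.1, chr13:48303751-48481890), which encodes the retinoblastoma protein that holds back entry into S phase, was at 19.4 in basal, 31.0 in stem and 18.8 in luminal. Its 1.60-fold ratio (1.06 to 2.52) rests on 23 basal counts, and its interval included 1 when PSMC4 or RPLP0 was left out of the scale.

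The other 3 genes called higher encode proteins of cell contacts. CDH3 (NM_001793.4, chr16:68645310-68733771) encodes P-cadherin, the cadherin of basal mammary cells, and had 37 counts in basal and 6991 in stem. Its normalised counts were 31.3 (22.0 to 43.1) and 54.4 (53.2 to 55.7), a ratio of 1.74-fold (1.26 to 2.48), with 35.5 in luminal. F11R (NM_016946.4, chr1:160995211-161021152), which encodes the tight junction protein JAM-A, had 28 and 5155 counts and a ratio of 1.70-fold (1.17 to 2.56). JUP (NM_002230.2, chr17:41754609-41786711) encodes plakoglobin, which links desmosomal and classical cadherins to the cytoskeleton, and had 42 and 7543 counts and a ratio of 1.66-fold (1.22 to 2.30). The luminal library held 29.0 of F11R and 47.1 of JUP, between basal (23.7 and 35.5) and stem (40.1 and 58.7). DSP, which encodes desmoplakin, the plaque protein of desmosomes, had 275 counts in basal and 26177 in stem and a log2 ratio of -0.19 (-0.36 to -0.01), whose interval lies below that of JUP. F11R and JUP were no longer called when RPLP0 was left out of the scale, at 0.55 and 0.52. FABP5, RRM2 and CDH3 were called under each of 10 alternatives of scaling or background subtraction. With a limit of 2-fold, RRM2 and CDH3 were not called.

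GNG11 (NM_004126.3, chr7:93921735-93928610), which encodes a gamma subunit of heterotrimeric G proteins, had the lowest ratio. It had 27 counts in basal, where equal levels would have given 14.9, and 1619 in stem. Basal was 1.81-fold (1.19 to 2.64) above stem, at 22.8 against 12.6 (12.0 to 13.2) normalised, and luminal lay between them at 18.1 (11.7 to 26.7).

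The mesenchymal intermediate filament gene VIM (NM_003380.2, chr10:17228241-17237593) had 203 counts in basal and 14062 in stem. Basal stood 1.57-fold (1.36 to 1.80) higher, at 171 (149 to 197) against 109 (108 to 111) normalised, and luminal at 127 (109 to 147). VIM was the only one of 3 mesenchymal genes on the panel with 10 or more basal counts. ZEB1, a transcription factor that represses epithelial genes, had 2 counts in basal and 85 in stem, and MMP11 was listed at 1 and 3.

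The basal keratins did not move together. KRT5 (NM_000424.2, chr12:52514575-52520394) encodes the type II keratin of basal cells, and had 917 counts in basal and 61068 in stem. Basal was 1.63-fold (1.52 to 1.74) above stem, and the luminal level of 704 (661 to 750) lay near the basal 775 (725 to 826) and above the stem 475 (472 to 479). KRT14, the type I partner of KRT5, had 565 counts in basal and 42822 in stem. It was 1.43-fold (1.32 to 1.56) higher in basal, at 477 against 333 in stem and 343 in luminal, and so did not reach the limit of 1.5-fold. KRT17, a type I keratin of basal and activated epithelia, went the other way, with 342 counts in basal and 49063 in stem. It was 1.32-fold (1.19 to 1.47) higher in stem, at 289 in basal, 382 in stem and 387 in luminal. Of these 3 basal keratins 1 was called, lower, and their median log2 ratio was -0.52 beside 0.08 for all 54 genes.

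KRT8, a type II keratin of luminal cells, had 1076 counts in basal and 83241 in stem. Its level was 1.40-fold (1.32 to 1.49) higher in basal, at 909 against 648 in stem and 898 in luminal. That interval lies wholly inside 1.5-fold, but not once the counting error of the scale is added. For both KRT5 and KRT8 the counting intervals of basal and luminal overlapped, and stem lay below them on this scale. As a share of all endogenous counts, KRT8 made up 12.1% (11.4 to 12.8, exact binomial) in basal and 10.5% (10.4 to 10.6) in stem, and KRT5 10.3% and 7.71%.

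Count ratios of 2 genes within a library need no scale between libraries. They are open to any effect of the deeper stem lane that differs with abundance, which was not tested, and CDH3 and KRT5 are far apart in abundance. There were 0.605 counts of KRT17 for each count of KRT14 in basal, 1.15 in stem and 1.13 in luminal, a 1.89-fold (1.65 to 2.17) difference between stem and basal. KRT5 over KRT14 was 1.62 in basal and 1.43 in stem, and KRT5 over KRT8 was 0.852 and 0.734. Both differences were small, with log2 values of -0.19 (-0.34 to -0.03) and -0.22 (-0.35 to -0.09). VIM over KRT8 was 0.189 in basal and 0.169 in stem, and its interval of -0.38 to 0.07 log2 included equality, so the lower VIM in stem could not be separated from the lower KRT8. CDH3 over KRT5 was 0.040 in basal, 0.050 in luminal and 0.114 in stem, a 2.84-fold (2.04 to 4.06) difference. CDH3 and KRT5 had the highest and the lowest ratio of the 4 basal markers, and the interval takes no account of that choice. Within the set of basal markers, CDH3 and KRT17 therefore took a larger part of the counts in stem and KRT5 and KRT14 a smaller one, whichever scale is used. Housekeeping genes shifted against each other as well: RPLP0 over ACTB was 2.77 in basal and 1.34 in stem.

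**Figure D2:**
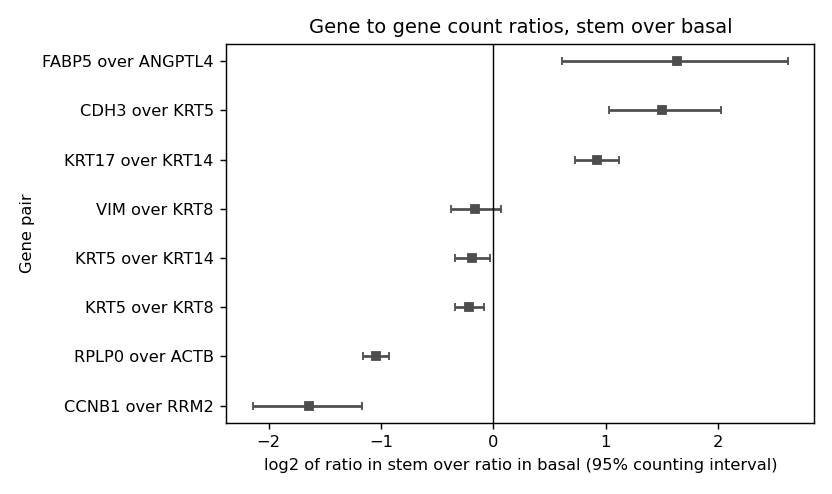
Differences of 8 gene to gene count ratios between the stem and the basal library (log2 of the ratio in stem over that in basal, with exact conditional 95% counting intervals). CCNB1 over RRM2 lies lowest at -1.64 and FABP5 over ANGPTL4 highest at 1.63, and VIM over KRT8 is the pair whose interval includes 0.

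Cell cycle genes stood on both sides of equality. CCNB1 (NM_031966.2, chr5:69167150-69178245) encodes cyclin B1, the activating subunit of the mitotic kinase, and had 143 counts in basal and 9589 in stem. It stood at 121 (102 to 142) in basal, 74.6 (73.2 to 76.2) in stem and 78.3 (64.2 to 94.5) in luminal, so that basal was 1.62-fold (1.36 to 1.91) above stem. NUF2 (NM_031423.3, chr1:163321954-163355759), which encodes a kinetochore protein of the NDC80 complex, had 32 and 2247 counts. It was 1.55-fold (1.05 to 2.19) higher in basal, at 27.0 (18.5 to 38.2) against 17.5 (16.8 to 18.2), with 13.8 (8.29 to 21.5) in luminal. NDC80, its partner in that complex, had 12 counts in basal and a log2 ratio of -0.22 (-1.03 to 0.74).

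In the list of mitosis and cytokinesis genes, 13 had 10 or more basal counts. Of these 0 were called higher and 2 lower (CCNB1 and NUF2), 8 lay below 0 and 5 above, and the list median was -0.22. Intervals below 1 without the size limit were also found for the ubiquitin-conjugating enzyme genes UBE2C at -0.33 and UBE2T at -0.54, both ending close to 0. CENPF, a kinetochore and matrix protein of dividing cells, was the 1 gene of the list with an interval above 1, at 0.44 (0.01 to 0.92). PTTG1 (securin) at -0.23 (-0.47 to 0.02), CDC20, an activator of the anaphase-promoting complex, at 0.16 (-0.15 to 0.48) and the proliferation marker MKI67 at 0.18 (-0.57 to 1.05) had intervals that included 0.

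In the list of S-phase and cell cycle entry genes, 2 of 7 were called higher (RRM2 and RB1) and 0 lower, 6 lay above 0, and the median was 0.33. RB1 restrains the S-phase entry that the other members serve. The thymidylate synthase gene TYMS was the member below 0, at -0.27 (-0.55 to 0.03), with 101 counts in basal and 9089 in stem. MYBL2 at 0.20 (-0.32 to 0.77), the helicase loader CDC6 at 0.33 (-0.37 to 1.14), the exonuclease EXO1 at 0.04 (-0.52 to 0.66) and the origin recognition gene ORC6L at 0.40 (-0.28 to 1.18) could not be placed on either side of 0.

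The contrast of CCNB1 and RRM2 needs no scale. There were 2.86 counts of CCNB1 per count of RRM2 in basal, 1.77 in luminal and 0.917 in stem, a 3.12-fold (2.24 to 4.40) difference between basal and stem. CCNB1 and RRM2 had the lowest and the highest ratio of the listed cell cycle genes. Their pair therefore had to stand apart, and its interval takes no account of that choice. Summed over the lists, a comparison added after the data were seen, mitosis counts outnumbered S-phase counts 2.93 to 1 in basal (771 and 263 counts) and 2.12 to 1 in stem, a log2 difference of -0.47 (-0.68 to -0.26). Without CCNB1 and RRM2 the sums stood at 2.95 to 1 and 2.64 to 1, and the difference of -0.16 (-0.39 to 0.07) was within counting error. Because these 2 were the extremes of the summed lists, leaving them out had to narrow the difference, and the intervals with and without them overlap.

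The promoters of CCNB1 and RRM2 are shown because these genes had the lowest and the highest ratio among the listed cell cycle genes, although the expression of both is periodic in dividing cells. Each line gives the 250 bases before the first RefSeq start on the plus strand of GRCh38.p14, at chr5:69166900-69167149 for CCNB1 and chr2:10122318-10122567 for RRM2, with CCAAT, the motif bound by NF-Y, in capitals.
CCNB1: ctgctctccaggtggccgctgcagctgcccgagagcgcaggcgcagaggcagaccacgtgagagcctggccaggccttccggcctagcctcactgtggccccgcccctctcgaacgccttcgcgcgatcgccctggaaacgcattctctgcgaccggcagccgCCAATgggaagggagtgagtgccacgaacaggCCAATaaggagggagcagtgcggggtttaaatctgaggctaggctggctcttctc
RRM2: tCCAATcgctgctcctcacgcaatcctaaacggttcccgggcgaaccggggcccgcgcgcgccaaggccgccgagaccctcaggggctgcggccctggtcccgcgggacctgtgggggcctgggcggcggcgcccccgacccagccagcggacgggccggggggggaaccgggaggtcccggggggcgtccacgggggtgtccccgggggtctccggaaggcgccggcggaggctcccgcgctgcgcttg
CCAAT lies 87 and 55 bases before the start in CCNB1, and 249 bases before the first start in RRM2, each on the strand shown. RRM2 has a second listed start farther downstream, with CCAAT 123, 93 and 66 bases before it. Those lie after the first start, inside the gene as annotated, and are not printed. Both strands were searched for CCAAT, for TTTGAA (the CHR element of late cell cycle promoters) and for TTTCCCGC, TTTGGCGC, TTTCGCGC and TTTGCCGC (E2F sites). In the windows of CCNB1 and RRM2 only CCAAT was found, and neither TTTGAA nor E2F letters. CCAAT was found in 32.0% of all 35116 promoter windows of this length and in 18 of the 42 compared genes that had a window. A gene was counted when any of its windows held the letters. Genes with more than 1 window, such as RRM2, thus had more chances of a match than a single window. The gene counts here and below are therefore not on the same footing as the shares of windows. It was held by 7 of 11 mitosis genes and 3 of 7 S-phase genes. TTTGAA stood in 13.3% of all windows, in 4 of the 11 mitosis genes and in 0 of the 7 S-phase genes. E2F letters stood in 2.79% of all windows, in 0 and in 1 of these genes. A match describes the letters and shows no binding.

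Genes of hypoxia and lipid handling were mixed. Of 7 compared, FABP5 was called higher and 0 were called lower, 5 lay above 0 and 2 below, and the median was 0.27. SLC16A3, a lactate exporter, had 35 counts in basal and 5415 in stem and a log2 ratio of 0.51 (0.03 to 1.03). DDIT4, a stress-induced inhibitor of mTORC1, was lower in stem at -0.49 (-0.71 to -0.27), with 171 and 13199 counts. The lipoprotein lipase inhibitor gene ANGPTL4 had 16 and 1171 counts and -0.57 (-1.27 to 0.24). For each count of ANGPTL4 there were 1.44 counts of FABP5 in basal, 1.15 in luminal and 4.45 in stem, a 3.10-fold (1.52 to 6.15) difference between stem and basal. FABP5 and ANGPTL4 had the highest and the lowest ratio of these 7 genes, so their pair had to stand apart, and its interval takes no account of that choice. NDRG1 at 0.34, the collagen lysyl hydroxylase PLOD1 at 0.27 and the purine salvage enzyme PNP at 0.20 had intervals that included 0.

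Among the basal-like genes other than keratins, 1 of 4 compared was called, CDH3, and the median was 0.31. CAV1, which encodes the caveolar coat protein caveolin-1, had 65 counts in basal and 9216 in stem and a log2 ratio of 0.39 (0.03 to 0.76). SFRP1, a secreted Wnt antagonist, was at 0.23 (-0.31 to 0.84), and PHGDH, the entry enzyme of serine synthesis, at -0.03 (-0.28 to 0.24). Of the luminal lineage list, 2 of 13 panel genes had enough basal counts: the biliverdin reductase gene BLVRA at 0.21 (-0.42 to 0.93) and the zinc transporter gene SLC39A6 at -0.06 (-0.87 to 0.90). Neither was called.

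**Figure D3:**
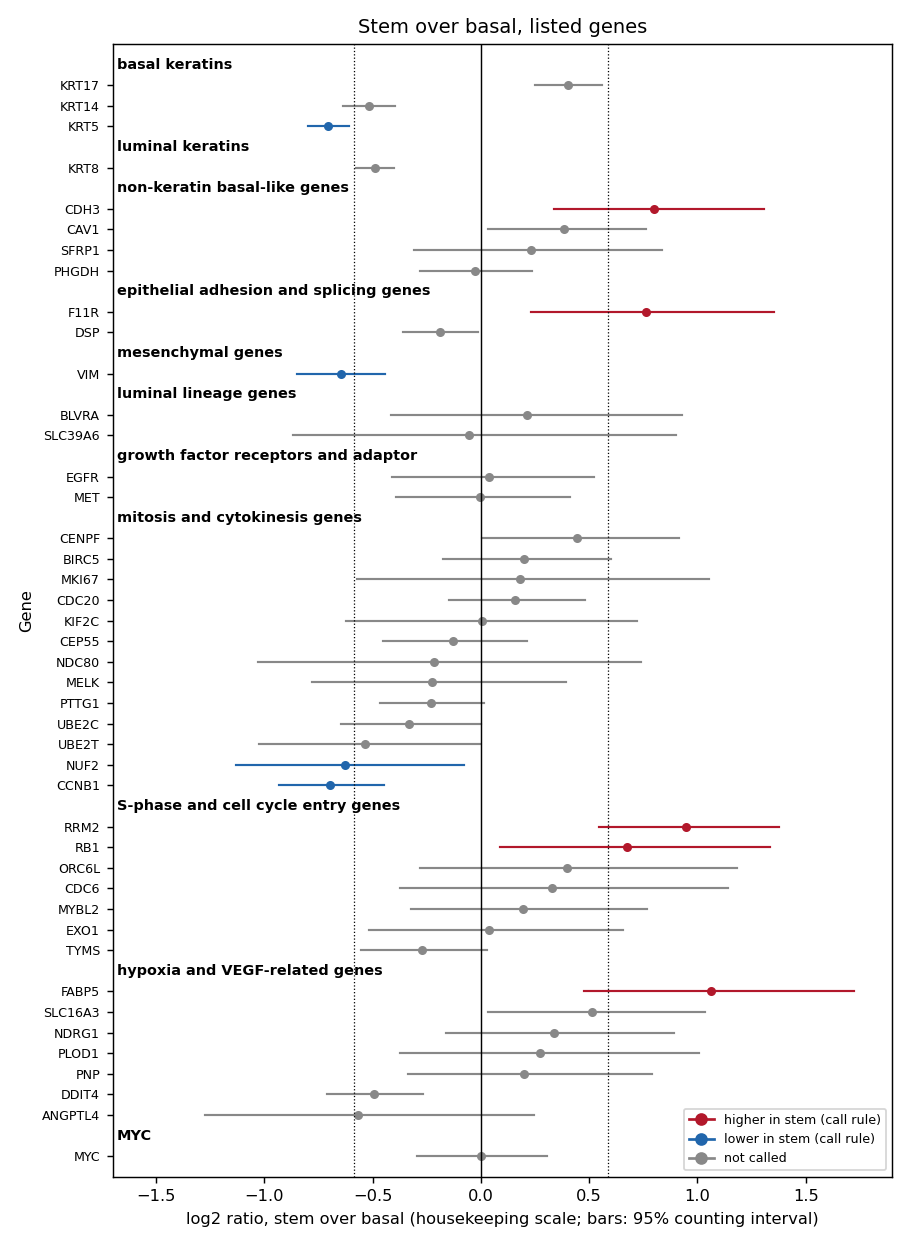
Log2 ratios of stem over basal on the housekeeping scale for the 43 compared genes that belong to a list, grouped by list, with 95% counting intervals and dotted lines at 1.5-fold. The mitosis genes reach from -0.69 (CCNB1) to 0.44 (CENPF) and the S-phase genes from -0.27 (TYMS) to 0.95 (RRM2). KRT17 lies above 0 and KRT14 and KRT5 below.

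For 12 genes the interval lay wholly inside 1.5-fold in either direction, which bounds their difference on this scale if the scale is taken as exact. With the counting error of the scale added, the intervals of KRT17 (up to 0.68), KRT8 (down to -0.73) and TYMS (down to -0.63) passed 1.5-fold. The receptor tyrosine kinase genes EGFR at 0.04 (-0.41 to 0.52) and MET, with 54 counts in basal and 5840 in stem and an interval of -0.39 to 0.41, were among them. So was the transcription factor gene MYC, with 95 counts in basal and 10297 in stem, normalised counts of 80.3 and 80.2 and an interval of -0.29 to 0.31. The others were PHGDH, CDC20, PTTG1, TYMS, DSP, KRT17, KRT8, the cytokinesis gene CEP55 at -0.13 (-0.45 to 0.21) and SPINT2, an inhibitor of serine proteases, at 0.14 (-0.16 to 0.45). Intervals reached past 1.5-fold on at least 1 side for the other 42 genes, called ones included, and for all 24 genes with fewer than 30 basal counts, where the median width of the interval was 1.38 log2.

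The most abundant genes mostly had ratios below those of the other genes. Genes were sorted by their count in the luminal library, which enters neither side of the ratio. Of the 9 genes with 100 or more luminal counts, 8 had a log2 ratio below 0 (KRT8, KRT5, KRT14, DSP, VIM, DDIT4, PTTG1 and CCNB1), and KRT17 lay above it, with a median of -0.49. Of the 8, KRT5, VIM and CCNB1 were called, and the interval of PTTG1 included 0. DSP and PTTG1 stood above 0 when scaled by total count, at 0.10 and 0.05, or by the 6 positive controls, at 0.28 and 0.24. The 22 genes with 30 to 99 luminal counts had a median of 0.22, and 16 of them were above 0. The 23 genes with fewer than 30 had a median of 0.04. Of the 6 genes called higher, 5 lay in the middle class, and of the 5 called lower, 3 lay in the top class. Across all 54 genes, which share their libraries, Spearman's rho was -0.12, and among the 45 genes under 100 luminal counts it was 0.23. The count minimum is set on the basal library, which is the lower side of the ratio, and it removes mostly scarce genes. It thus shapes the ratios of the scarcer classes, and these values cannot show whether there is a trend below the top class. The top class itself holds few genes. The positive control probes, from the most to the least abundant, did not follow one direction on the same scale. Probe A, with 623 counts in basal and 53549 in stem, was at -0.34 (-0.45 to -0.22), B at -0.03 (-0.30 to 0.26), C at 0.12 (-0.41 to 0.70) and D at -0.24 (-1.05 to 0.72). The scarce probe E, with 4 basal counts, was at -1.49 (-2.88 to 0.40), and F, listed at 1 in basal, at -0.81 with no upper bound. The part of abundance in the lower ratios was not tested.

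**Figure D4:**
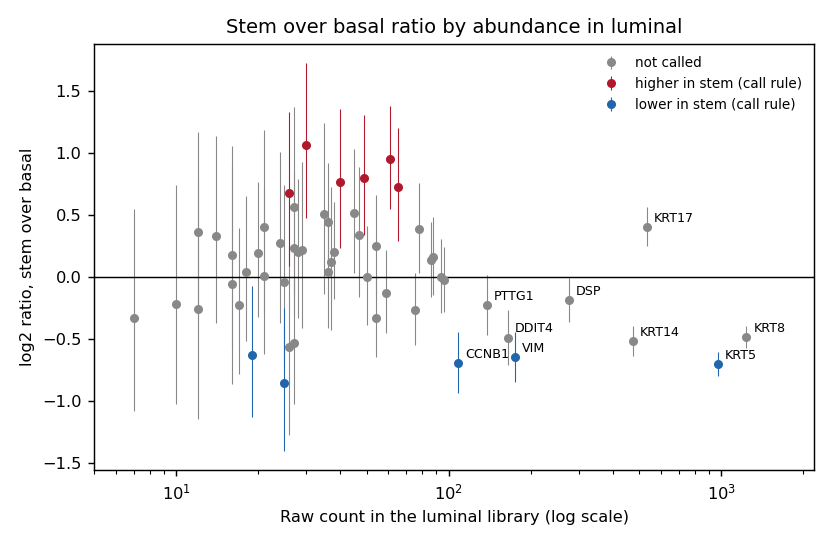
Log2 ratio of stem over basal (housekeeping scale, bars are 95% counting intervals) against the raw count in the luminal library (log axis) for the 54 genes. Names mark the 9 genes with 100 or more luminal counts, of which KRT17 alone lies above 0.

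The count minimum decides which genes are seen. Just inside it were DDR1, a collagen receptor gene, with 10 counts in basal and 908 in stem, and NDC80 and SLC39A6 with 12. Just outside were ANLN and VEGFA with 9 counts in basal and 1169 and 1415 in stem, and SPINT1, among those with 8, with 688. Of the 51 genes under the minimum, 31 were listed at 1 in basal, and 20 of those were above the background of 18.9 counts (mean plus 2 SD of the negative controls) in stem. A minimum set on the basal count leaves out genes that are low in basal and high in stem. Among those left out, ESRP1, a regulator of epithelial splicing, had 4 counts in basal and 3053 in stem, a log2 ratio of 2.81 (1.46 to 4.69). GPR160, an orphan receptor gene, had 2 and 793 and an interval of 0.01 to 4.92. That interval included 0 when PSMC4 was left out of the scale, or when the counting error of the scale was added.

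**Figure D5:**
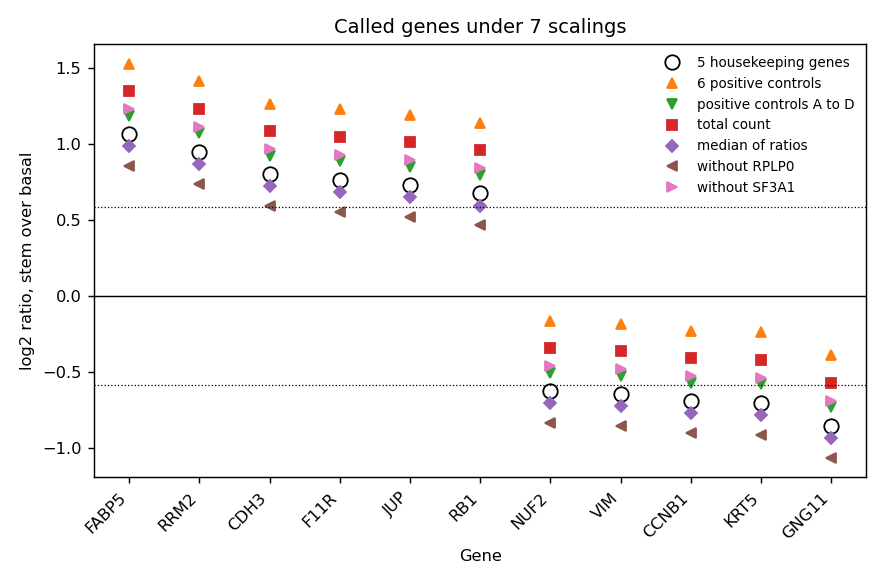
Log2 ratio of stem over basal for the 11 called genes under 7 ways of scaling the libraries, with dotted lines at 1.5-fold. The genes called higher stay between 0.46 and 1.53, and those called lower between -1.07 and -0.16; each scale shifts all 11 by one amount, of at most 0.47, which is less than the limit of 0.585 that a call needs.

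The split of calls depended on the scale. On the scale of all 6 positive controls, KRT5 came to -0.24, CCNB1 to -0.23, VIM to -0.18, NUF2 to -0.16 and GNG11 to -0.39, each under 1.5-fold. On that scale 25 genes were called higher and 0 lower, and with probes A to D alone 7 and 1. With the total endogenous count 14 were called higher and 0 lower. Without RPLP0 in the housekeeping mean the split was 3 higher and 9 lower, and without SF3A1, which had 10 counts in basal, it was 10 higher and 1 lower.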

How the data were processed

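Of 3 nCounter libraries, the stem and the basal one were compared, 1 library a side, with luminal as a further level and to sort genes by abundance. Groups came from the labels. The raw table holds counts per probe that the authors deposited without normalization, per the file headers; its lowest value in basal is 1, so a listed 1 was read as 0 or 1. The authors also deposited log2 values for 105 genes, which equalled log2 of the count over the housekeeping mean within 3.53e-09. Steps before the counts are not given in the sources used here. In all, 110 endogenous genes, 6 positive and 8 negative probes were read. Log2 ratios and intervals (Clopper-Pearson for ratios, Fisher's conditional odds ratio for gene pairs, Poisson for levels) were computed in Python 3.11.15 with scipy 1.17.1 and tested on simulated data. Intervals cover counting error only. Gene coordinates and promoters are RefSeq's (GRCh38.p14). All 110 genes matched, 109 by accession, and 4 have newer symbols, among them ORC6L (now ORC6).

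The members, the 11 gene lists, the 8 gene pairs and the call rule were chosen with earlier results of these data known. Genes were named when called, when the interval lay wholly inside 1.5-fold, when among the most abundant of a list, in a pair, nearest the count minimum, or under it with a 2-fold ratio and an interval excluding 1. JUP and GNG11 belong to no list, and ZEB1, MMP11 and the positive control probes were named after their values were seen. Alternatives were other scales, each housekeeping gene left out, background subtraction, other limits, intervals and count minimums.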

Additional observations from a re-analysis of the deposited data

How the results depend on the processing

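The number of called genes was 11 (6 higher, 5 lower) and stayed within 1.5 times of it, from 8 to 14, with positive controls A to D (7 higher, 1 lower), total count (14 and 0), median of ratios (6 and 7), each housekeeping gene left out in turn, background subtraction, 99% intervals (5 and 4), intervals that add the counting error of the scale and count minimums of 5 and 20. Splits were 6 and 4 without ACTB, 7 and 3 without MRPL19, 5 and 7 without PSMC4, 3 and 9 without RPLP0 and 10 and 1 without SF3A1. It was 25, all higher, on the scale of 6 positive controls, 1 with a limit of 2-fold and 21 with no limit on size. The median log2 ratio of 0.08 ran from -0.13 without RPLP0 to 0.24 without SF3A1 among the single housekeeping genes, and moved to 0.54 with 6 positive controls and 0.36 with total count, because a scale shifts all genes by one amount. Of 748 further values of genes and lists, 682 moved by less than their counting error, or that of the scale for a list, and 66 moved more. The 748 include the deposited log2 value of each gene followed, beside the alternatives above. Those equal the main calculation, so their agreement was fixed in advance and raises the share that did not move. No sign change of a called gene was possible under these scales, since each shift is smaller than the limit of a call. Of the 54 genes, 30 kept one sign under each scaling tried. The 8 gene pairs moved by less than their counting error when background was subtracted. In the basal library 24 of the 54 genes had fewer than 30 counts, which widens their intervals, and the disagreement of the housekeeping genes (SD of 0.60 log2) limits the scale. That SD includes counting error: the intervals of SF3A1, MRPL19 and PSMC4 included 0, and those of RPLP0 and ACTB did not. No paired analysis was possible because each group has 1 library.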
